A study of Mus musculus with 2 samples.

Results

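Lysine acetylation is written by acetyltransferases, erased by deacetylases and read by proteins with a bromodomain, and the genes described here are 50 members of these classes among the 15623 genes listed in mouse peritoneal macrophages. They were taken by name: 11 lysine acetyltransferases with the adaptor Tada3, 4 nuclear receptor coactivators (Ncoa1, Ncoa2, Ncoa3 and Ncoa6), 11 zinc-dependent histone deacetylases (Hdac1 to Hdac11), 7 NAD-dependent deacylases (Sirt1 to Sirt7), 4 corepressor scaffolds (Ncor1, Sin3a, Sin3b and Rcor1) and 12 bromodomain proteins. The rule used names alone, although earlier results of these data were known when the list was drawn up, and all 50 were listed in both libraries.

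The series holds 2 RNA-seq libraries of thioglycolate-elicited peritoneal macrophages from C57BL/6 mice of wild type genotype, 1 left non-treated (NT) and 1 stimulated with mouse interleukin-4 (IL-4) for 6 h. The mice were 6 to 8 weeks old, the cells were lavaged 4 to 5 days after thioglycolate, adhered for 4 h and were kept in medium with 0.5% serum, and these steps were shared by both groups. The characteristics name bone marrow as the tissue whereas the source is given as peritoneal macrophages, and how many mice went into each library is not given in the sources used here. With 1 library per group there was no replicate and no test between conditions, so every interval below covers counting error only and every difference is one between these 2 libraries.

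A histone acetyltransferase moves the acetyl group of acetyl-CoA to the side chain of a lysine, which removes its charge and creates a docking site for bromodomains. CBP (Crebbp) and p300 (Ep300) acetylate histones and many transcription factors, and the p160 coactivators recruit them to nuclear receptors. Class I histone deacetylases work in nuclear corepressor complexes, class IIa enzymes shuttle between nucleus and cytoplasm and act largely as adaptors for such complexes, and sirtuins consume NAD to deacylate proteins in nucleus, cytoplasm and mitochondria. In macrophages IL-4 acts through the transcription factor Stat6, which binds the sites TTC and GAA facing each other with a spacer between them.

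The members' promoters are shown first, since Stat6 binds DNA directly. RefSeq promoters of 300 bases (250 before the transcript start and 50 after it, GRCm38.p6) were found for 42 of the 50 members. The first shown are those of Hdac5, the single member called lower with and without the length trend defined below, and of Hat1, the single member called higher. Both are printed 5′ to 3′ on the strand of the gene, with the 50 bases from the transcript start onward in capitals. The Hdac5 promoter lies at chr11:102230123-102230422 on the minus strand and the Hat1 promoter at chr2:71389010-71389309 on the plus strand.
Hdac5: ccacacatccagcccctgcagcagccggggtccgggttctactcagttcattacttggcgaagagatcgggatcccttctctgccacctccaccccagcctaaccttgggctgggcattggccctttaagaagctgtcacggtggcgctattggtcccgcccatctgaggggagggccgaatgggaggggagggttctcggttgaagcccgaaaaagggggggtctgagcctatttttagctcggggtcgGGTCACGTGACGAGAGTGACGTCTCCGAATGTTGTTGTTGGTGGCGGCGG
Hat1: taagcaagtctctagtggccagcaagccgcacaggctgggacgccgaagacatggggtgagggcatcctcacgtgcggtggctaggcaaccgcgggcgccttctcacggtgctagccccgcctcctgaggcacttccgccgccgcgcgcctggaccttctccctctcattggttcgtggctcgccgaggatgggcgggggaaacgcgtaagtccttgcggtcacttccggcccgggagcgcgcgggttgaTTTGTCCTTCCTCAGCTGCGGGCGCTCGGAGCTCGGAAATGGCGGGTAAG
Neither promoter holds TTCNNNGAA or TTCNNNNGAA, these sites with a spacer of 3 or 4 bases, which read the same on both strands. The Hat1 promoter has a GC content of 66.7% with 32 CpG dinucleotides and the Hdac5 promoter 60.7% with 18.

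A match to 1 of these motifs was found in 8 of the 42 members, and their windows are printed to show where the letters sit, with the match in capitals and 10 bases on each side, 5′ to 3′ on the minus strand for each. The windows, in the order of the lines, lie at chr15:97815067-97815095, chr15:97831890-97831918 and chr15:97831795-97831823 (Hdac7, the first match 222 bases before a transcript start and the others 141 and 46 bases before another start), chr1:92180415-92180444 (93 before), chr2:60125909-60125937 (187 before), chr2:155440944-155440973 (180 before), chr11:62438492-62438520 (5 after), chr11:120625087-120625115 (91 before), chr10:81627341-81627370 (38 before) and chr17:34120027-34120055 (145 before). All but the Sirt7 window lie within the span of their gene, near transcript starts other than the outermost.
Hdac7, match 1: ttccccgacgTTCCCTGAAtgcttctcca
Hdac7, match 2: acaggagtccTTCCCCGAAgcgtaaagca
Hdac7, match 3: gtatctgggtTTCCGGGAAttgtgcgcgg
Hdac4: tgacgctttcTTCATTAGAAaccaggcagg
Baz2b: agatacagtaTTCTTGGAAtgaagaagca
Ncoa6: gggataagttTTCTAGTGAAaactgattta
Ncor1: tgtaggttgcTTCCTAGAAacatggttgt
Sirt7: ctggtggtatTTCTTTGAAatcccgaagg
Sirt6: tgggagggacTTCCCTGGAAggagggggcg
Brd2: attactttggTTCGGGGAAgacgaggtta
The spacer of 3 was found in 5 of the 42 members (11.9%) against 9.55% of the 27025 genes with a promoter in the table, and the spacer of 4 in 3 members (7.14%) against 8.01%. Among the 6876 such genes with at least 200 reads the shares were 8.13% and 6.40%. A match of these letters is a description and not a shown binding site. The members' promoters had a median GC content of 62.0% and a median of 23 CpG dinucleotides, next to 61.3% and 21 for the genes with at least 200 reads.

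The NT library held 11035641 expected reads and the IL-4 library 11250099, of which the 50 members made up 0.309% and 0.277%. The macrophage markers summed to 17095 and 17408 CPM (reads scaled to the library total), sums made up mostly of Lyz2 and Cd68. Within that list Csf1r, the receptor of the macrophage growth factor, was called higher with and without the length trend (6236 reads in NT and 11896 in IL-4, log2 ratio 0.90), and Cd14, the lipopolysaccharide co-receptor, was called lower both ways (1219 and 591 reads, -1.07). The part of these marker differences in the members' values was not tested. Arg1, the arginase of IL-4-activated macrophages, had 30 reads in NT and 7711 in IL-4, and Chil3, Mrc1 and Retnla were also called higher. Markers of other cells were low: the B cell list summed to 9.61 and 8.53 CPM, the T cell list to 2.60 and 2.15, the mast cell list to 5.35 and 4.18, the eosinophil list from 4.803 to 2.49 (Epx and Ear1 at 0), the neutrophil list to 3.17 and 1.87 (S100a9, Ly6g, Camp and Ngp at 0) and the erythroid list to 5.82 and 5.07. The mesothelial and adipose list went from 4.17 to 15.4 CPM (Cfd at 0), which came from Adipoq with 0 reads in NT and 139 in IL-4. Msln had 12 reads in NT and 2 in IL-4, Upk3b 12 and 7, and Krt19 22 and 25. The part of these cells was likewise not tested, and in bulk RNA fewer cells of a type and less RNA per cell cannot be told apart.

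A gene was called higher or lower when its log2 ratio of IL-4 over NT, from reads scaled to the library total with 0.5 added, was at least 0.75 in size and its exact 95% interval left out 0. Of the members 1, Hat1, was called higher and 4 were called lower, namely Ncoa1, Hdac5, Crebbp and Hdac9. Over the 15593 genes with a read, 4.07% were called higher and 6.28% lower, so counts of 1 and 4 among 50 lay near the background. Among the 8461 genes with at least 200 reads over both libraries, 3.58% were called higher and 5.81% lower, and 1 and 3 of the 44 members at that depth. The median log2 ratio of the 50 members was -0.07, next to -0.03 for all tested genes and 0.00 for those with at least 200 reads.

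Transcript length went with the ratio in these libraries, so each ratio is also given less the length trend, the median ratio of 200 genes of the most similar length, drawn from the genes with 200 reads or more. Across the 49 members over the floor of 3 reads, Spearman's rho between length and ratio was -0.64, and across the 8461 genes it was -0.45; these genes come from the same pair of libraries and share their depth, and the values are a description. After subtraction the rho was -0.05 and -0.02. In that reading no member was called higher, against 4.07% of all tested genes, and 2 were called lower, Hdac5 and Sirt4, against 4.87%. The median of the 50 members was then -0.03. Among the 44 members with at least 200 reads, none was called higher and 1, Hdac5, was called lower. Of the 8461 genes at that depth, 310 were called higher and 302 lower in this reading.

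**Figure D1:**
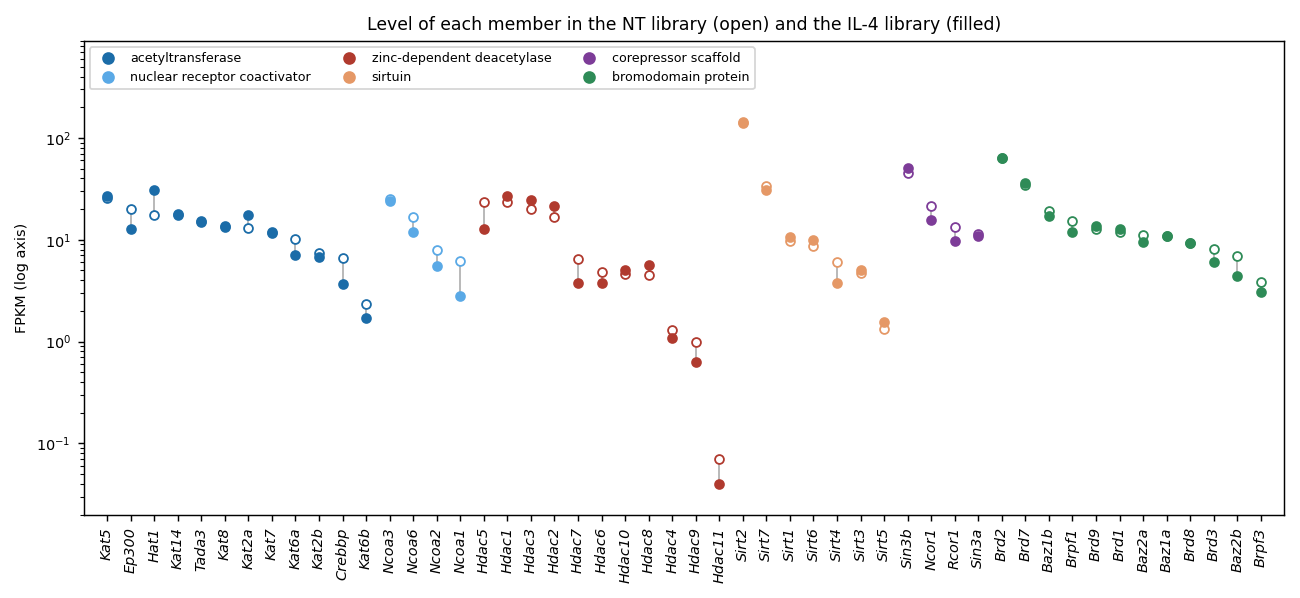
Level of each of the 50 members as FPKM on a log axis in the NT library (open circles) and the IL-4 library (filled circles), ordered by role and then by NT level. Sirt2 stands highest at 140.38 and 144.78 and Hdac11 lowest at 0.07 and 0.04, and most pairs of circles nearly coincide.

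Among the acetyltransferases, CBP was called lower and p300 had a ratio under 0 that missed the threshold, Hat1 was called higher, and the other enzymes were not called, with ratios between -0.51 and 0.45. Crebbp (gene 12914, chr16:4081334-4213957) had 561 reads in NT and 312 in IL-4, or 6.68 and 3.64 FPKM. Its log2 ratio was -0.87 (95% interval -1.08 to -0.67), a level 1.83-fold higher in NT. Transcripts of its length of 7507 bases had a median ratio of -0.47, and the ratio of Crebbp less that trend was -0.41 (-0.61 to -0.21), which left out 0 but was not called.

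Ep300 (gene 328572, chr15:81586209-81652077), the closest relative of Crebbp, had 1958 reads in NT and 1273 in IL-4, or 20.00 and 12.75 FPKM. Its log2 ratio of -0.65 (-0.75 to -0.55) missed the threshold, and less the length trend it was -0.22 (-0.32 to -0.12). Per length p300 was therefore the more abundant of the pair in both libraries, 2.99 times the level of CBP in NT and 3.50 times in IL-4.

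Hat1 (gene 107435, chr2:71389260-71441622), the enzyme that acetylates newly made histone H4 before it is placed on chromatin, had 303 reads in NT and 544 in IL-4. Its level went from 17.51 to 30.83 FPKM, a log2 ratio of 0.82 (0.61 to 1.02), and less the length trend it was 0.69 (0.49 to 0.90), under the threshold. Kat2a (GCN5), the catalytic subunit of the SAGA and ATAC complexes, had 438 and 610 reads with a ratio of 0.45 (0.27 to 0.63) that length did not alter (0.46). Its paralog Kat2b (PCAF) had 362 and 325 reads with a ratio of -0.18 (-0.40 to 0.04). The shared adaptor Tada3 had 313 and 309 reads (-0.05), and Kat14, the second enzyme of ATAC, 703.74 and 746.98 (0.06).

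None of the MYST family was called in either reading. Kat5 (TIP60), the most abundant acetyltransferase in NT at 25.51 FPKM, stood at 26.73 in IL-4, a ratio of 0.07 (-0.10 to 0.24), and Kat8 (MOF) had 218 and 227 reads with a ratio of 0.03. Less the length trend Kat5 stood at -0.05 (-0.22 to 0.12) and Kat8 at -0.07 (-0.35 to 0.20). Kat7 (HBO1) had 771 and 816 reads, a ratio of 0.05 (-0.09 to 0.20) as measured and 0.35 (0.20 to 0.49) less the trend of transcripts as long as its own. Kat6a (MOZ), at 1036 and 743 reads, and Kat6b (MORF), at 188 and 142, had ratios of -0.51 (-0.65 to -0.37) and -0.43 (-0.76 to -0.11), which were -0.07 and 0.03 after the length trend. The 12 genes of this class summed to 160.16 FPKM in NT and 165.58 in IL-4, with a median ratio of -0.01.

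**Figure D2:**
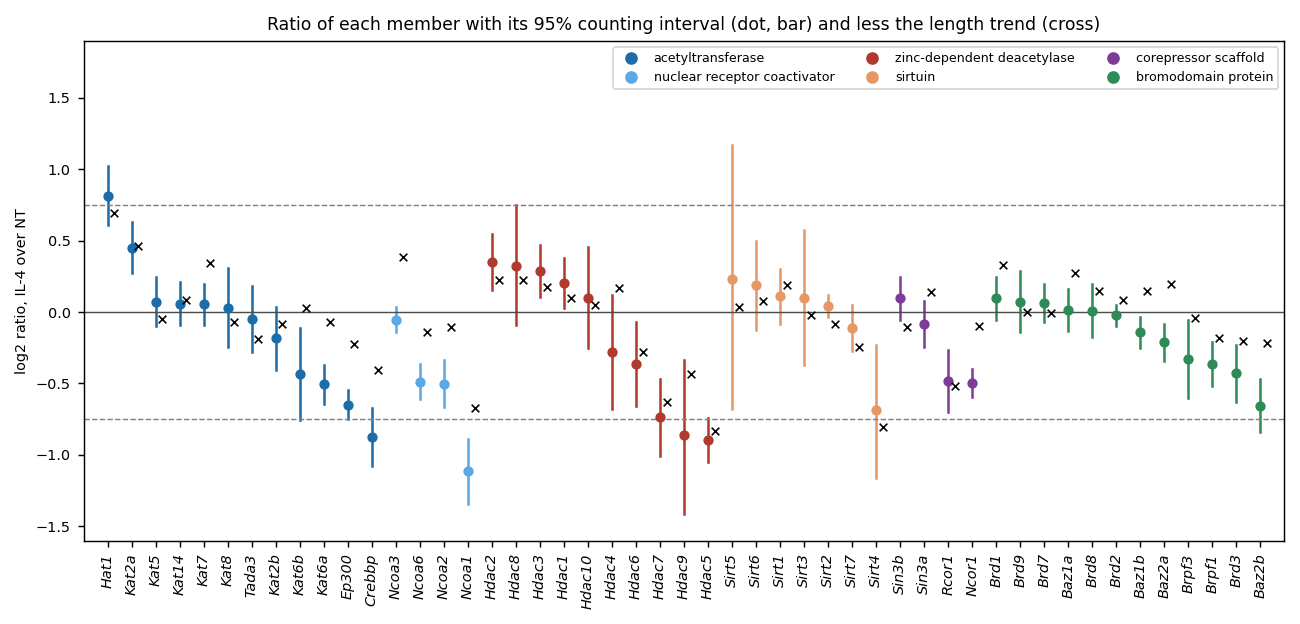
Log2 ratio of IL-4 over NT for the 49 members over the floor (dots), with exact 95% counting intervals (bars) and the ratio less the length trend (crosses), grouped by role, with dashed lines at the threshold of 0.75 on either side. Hat1 lies above the upper line and Crebbp, Ncoa1, Hdac9 and Hdac5 below the lower one, and with the length trend taken off the crosses of Hdac5 and Sirt4 alone lie beyond a line.

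The nuclear receptor coactivators all had ratios under 0, and Ncoa1 had the largest ratio of the 50 members in size as measured, though less the length trend Hdac5, Sirt4 and Hat1 exceeded it. Of the 575 genes of at least 7000 bases with at least 200 reads, 514 had ratios under 0, and Ncoa1, Ncoa2 and Ncoa3 are of that length. Ncoa1 (SRC-1, gene 17977, chr12:4247362-4477206) had 502 reads in NT and 236 in IL-4, or 6.11 and 2.82 FPKM, a log2 ratio of -1.12 (-1.35 to -0.89) and a level 2.17-fold higher in NT. Less the length trend it was -0.67 (-0.90 to -0.45), under the threshold. Ncoa2 (SRC-2) had 725 and 522 reads with a ratio of -0.50 (-0.67 to -0.34), and Ncoa6, which binds the methyltransferase complexes of MLL3 and MLL4, 1286 and 935 with -0.49 (-0.61 to -0.36). Less the length trend Ncoa2 stood at -0.10 (-0.27 to 0.06) and Ncoa6 at -0.14 (-0.26 to -0.01). Ncoa3 (SRC-3), the most abundant at 25.15 FPKM, was at 24.20 in IL-4 with a ratio of -0.05 (-0.14 to 0.03). Measured against transcripts of its own length of 7571 bases, Ncoa3 stood above the trend by 0.39 (0.30 to 0.48). The 4 coactivators summed to 55.84 FPKM in NT and 44.48 in IL-4, a sum that fell by 20.3%, and their median ratio of -0.49 was -0.12 less the length trend. The summed FPKM of all tested genes of at least 7000 bases fell by 23.5%.

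The class I and class IIa deacetylases had measured ratios on opposite sides of 0. All 4 class I enzymes had ratios over 0, as did 2941 of the 4377 genes under 3000 bases with at least 200 reads, a length range that holds all 4, with a summed level of 64.62 FPKM in NT and 78.23 in IL-4, 21.1% more. All 4 class IIa enzymes had measured ratios under 0, but Hdac4 lay at 0.17 less the length trend. Their summed level was 32.22 FPKM in NT and 18.23 in IL-4, which fell by 43.4%, and Hdac5 alone made up 23.50 and 12.73 of it. The median ratio was 0.31 for class I and -0.80 for class IIa as measured, and 0.20 and -0.53 less the length trend.

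Hdac1 and Hdac2, the catalytic pair of the SIN3, NuRD and CoREST complexes, had 505 and 592 reads and 371 and 482 reads. Their ratios were 0.20 (0.03 to 0.38) and 0.35 (0.15 to 0.55). Hdac3, the enzyme of the NCoR complex, had 445 reads in NT and 553 in IL-4 with a ratio of 0.29 (0.10 to 0.47). Hdac8 had 86 and 110 reads, and its ratio of 0.33 had an interval of -0.09 to 0.75 that included 0. None of these 4 reached the threshold, and less the length trend the interval of Hdac2 alone (0.03 to 0.43) left out 0.

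In class IIa, Hdac5 (gene 15184, chr11:102195747-102230172) had 1005 reads in NT and 551 in IL-4. Its level went from 23.50 FPKM, the highest of any deacetylase of the zinc-dependent group in NT, to 12.73, below Hdac1, Hdac2 and Hdac3. The log2 ratio was -0.89 (-1.05 to -0.74), and with a transcript of 3828 bases the length trend took little off it, leaving -0.83 (-0.98 to -0.68). Hdac5 was thus called lower in both readings, as no other member was. Hdac7 (gene 56233), a class IIa enzyme known from thymocytes and endothelium, had 301 and 184 reads with a ratio of -0.74 (-1.01 to -0.47), just inside the threshold, and -0.63 (-0.91 to -0.36) less the trend.

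Hdac9 (gene 79221, chr12:34047580-34917095) had few reads, 84 in NT and 47 in IL-4, and its ratio of -0.86 had a wide interval of -1.41 to -0.33. Less the length trend it was -0.43 with an interval of -0.99 to 0.09. The mean transcript length that the quantification assigned to Hdac9 was 7659 bases in NT and 6578 in IL-4, so it fell by 14.1%, and its FPKM of 0.98 and 0.63 differed less than its reads did. With 0.1 added to the FPKM the ratio of Hdac9 was -0.57, and it was then no longer called. Hdac4 had 119 and 100 reads with a ratio of -0.28 (-0.68 to 0.12), and of 0.17 (-0.23 to 0.56) less the trend. The values nearest the threshold were thus those of Hdac9 (-0.86) and Hat1 (0.82) outside it and of Hdac7 (-0.74) and Sirt4 (-0.69) inside it.

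The class IIb enzymes bracketed 0. Hdac6, the cytoplasmic tubulin deacetylase, had 222 and 176 reads with a ratio of -0.36 (-0.66 to -0.07), and Hdac10, a polyamine deacetylase, 130 and 142 with 0.10 (-0.25 to 0.45). Less the length trend Hdac6 stood at -0.28 (-0.57 to 0.01), with an interval that included 0. Hdac11, the class IV member, had 2 reads in NT and 1 in IL-4, both under the floor of 3, and no ratio is given for it.

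The sirtuins as a class differed little between the libraries, with a summed level of 204.56 FPKM in NT and 206.68 in IL-4, of which Sirt2 alone made up most. Sirt2, the cytoplasmic sirtuin, had 2825 and 2968 reads, or 140.38 and 144.78 FPKM, ranking 484th of the tested genes by mean level, with a ratio of 0.04 (-0.03 to 0.12). Sirt7, the nucleolar sirtuin, followed at 33.56 and 31.03 FPKM with a ratio of -0.11 (-0.28 to 0.05). Less the length trend the intervals of both left out 0, at -0.08 (-0.16 to -0.01) for Sirt2 and -0.24 (-0.41 to -0.08) for Sirt7. The nuclear enzymes Sirt1 (427 and 470 reads) and Sirt6 (162 and 188) had ratios of 0.11 (-0.08 to 0.30) and 0.19 (-0.12 to 0.50).

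Sirt4 had the lowest ratio of the sirtuins. This mitochondrial enzyme (gene 75387, chr5:115478006-115490264) had 103 reads in NT and 65 in IL-4, or 6.04 and 3.74 FPKM. Its ratio of -0.69 (-1.16 to -0.23) was not called, but transcripts as short as its 1553 bases had a median ratio of 0.12, and less that trend it was -0.80 (-1.28 to -0.35) and was called lower. The other mitochondrial sirtuins had ratios over 0 with intervals that included it, since Sirt3 had 75 and 82 reads (0.10, -0.37 to 0.57) and Sirt5 20 and 24 reads (0.23, -0.68 to 1.17). The interval of Sirt4 overlapped both of these, and its difference from them was not computed.

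None of the 4 corepressor scaffolds was called in either reading. Ncor1, which activates Hdac3, had 2004.43 expected reads in NT and 1450.96 in IL-4, a ratio of -0.49 (-0.59 to -0.40) that was -0.10 (-0.20 to 0.00) less the trend of its long transcripts. Rcor1 (CoREST), which links Hdac1 and Hdac2 to the demethylase Kdm1a, had 407 and 297 reads with a ratio of -0.48 (-0.70 to -0.26), and with a transcript of 2725 bases it stayed at -0.52 (-0.74 to -0.30) less the trend. Sin3b had the highest FPKM of the 4 scaffolds, 45.21 in NT and 50.82 in IL-4, from 685 and 746 reads. Its assigned transcript length was short, 1385 bases in NT and 1317 in IL-4. Its ratio was 0.10 (-0.06 to 0.25), and that of Sin3a (646 and 622 reads) was -0.08 (-0.24 to 0.08). Less the length trend Sin3b stood at -0.10 (-0.26 to 0.05) and Sin3a at 0.14 (-0.02 to 0.30).

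None of the 12 bromodomain proteins was called in either reading. The BET protein Brd2, which binds acetylated histone H4, was the most abundant at 63.84 FPKM in NT and 62.76 in IL-4, with 3117 and 3126 reads and a ratio of -0.02 (-0.10 to 0.05). Its relative Brd3 had 480 and 363 reads with a ratio of -0.43 (-0.63 to -0.23). Less the length trend Brd2 stood at 0.08 (0.01 to 0.16) and Brd3 at -0.20 (-0.41 to -0.01). Baz2b was the lowest of the class, with 618 reads in NT and 400 in IL-4, 6.92 and 4.39 FPKM and a ratio of -0.65 (-0.84 to -0.47), which was -0.22 (-0.41 to -0.04) less the length trend.

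The bromodomain subunits of the SWI/SNF complexes hardly differed between the libraries: Brd7 had 903 and 961 reads (ratio 0.06, -0.07 to 0.19) and Brd9 349 and 374 (0.07, -0.14 to 0.29). Brd8, a subunit of the TIP60 complex, had 476.67 and 488.55 expected reads with a ratio of 0.01. Of the scaffolds of the MYST acetyltransferases, Brd1, which partners HBO1, had 688 and 750 reads and the highest ratio of the class at 0.10 (-0.05 to 0.25), and it stood 0.33 (0.18 to 0.48) above the trend for its length. Brpf1 (799 and 633 reads) and Brpf3 (255 and 207) had ratios of -0.36 (-0.52 to -0.21) and -0.33 (-0.60 to -0.06). Less the length trend they were -0.18 (-0.34 to -0.03) and -0.04 (-0.31 to 0.23).

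The BAZ proteins are subunits of ISWI chromatin remodellers. Baz1a (749 and 771 reads) and Baz1b (1370 and 1265) had ratios of 0.01 (-0.13 to 0.16) and -0.14 (-0.25 to -0.03), and Baz2a (1034 and 911) one of -0.21 (-0.34 to -0.08). Less the length trend the same 3 genes lay above 0, at 0.27, 0.15 and 0.20, with intervals that left out 0. The whole class summed to 207.48 FPKM in NT and 197.47 in IL-4, with a median ratio of -0.08 as measured and 0.04 less the trend.

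**Figure D3:**
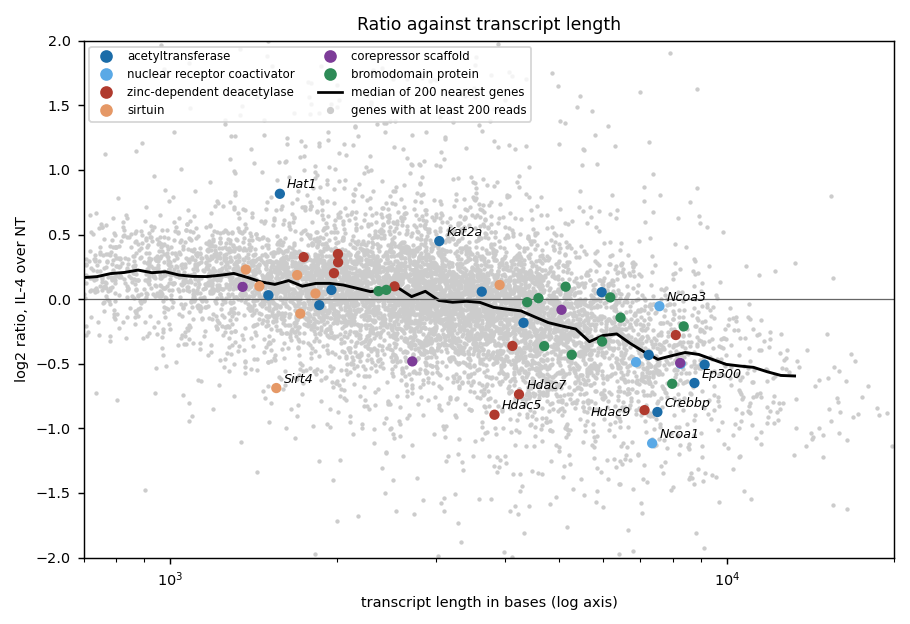
Log2 ratio of IL-4 over NT against transcript length in bases (log axis) for genes with at least 200 reads (grey), with the median of the 200 nearest genes (black line) and the 49 members over the floor in the colours of their roles. The line drops below 0 for long transcripts, where Ncoa1, Crebbp and Hdac9 lie below it and Ncoa3 above it, and Hdac5, Hdac7 and Sirt4 lie well below it at shorter lengths.

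Length sorted the members as it sorted other genes. All 12 members of at least 7000 bases had ratios under 0, with a median of -0.50, and 3 of them (25.0%) were called lower. Of the 928 tested genes of that length, 760 had ratios under 0 and 22.4% were called lower, with a median of -0.50. Of the 575 such genes with at least 200 reads, 514 had ratios under 0. Less the trend, none of the 12 was called and their median was -0.10. In that reading 51 of the 928 tested genes of at least 7000 bases were called higher and 50 lower, with a median of -0.03. Of the 20 members under 3000 bases, 15 had ratios over 0 with a median of 0.08, and 1 was called higher. Of the 8808 tested genes under 3000 bases, 4853 had ratios over 0 and 4.70% were called higher, with a median of 0.06. Of the 4377 such genes with at least 200 reads, 2941 had ratios over 0. With 1 library per group, the trend and the treatment cannot be told apart.

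Related members were compared in 17 pairs by the difference of their log2 ratios, with exact intervals from the 4 read counts. In 7 pairs the interval left out 0, and in these 7 it did so in the same direction less the length trend. How often pairs of other genes differ in this way was not computed. Counting intervals often left out 0 at this depth. Of the 8461 genes with at least 200 reads, 2372 had intervals above 0 and 2559 below it. Ncoa2 exceeded Ncoa1 by 0.61 (0.33 to 0.90) and Ncoa3 exceeded Ncoa2 by 0.45 (0.26 to 0.63). The ratios of these 3 p160 coactivators, whose transcripts are of similar length, thus differed beyond counting error in both pairs. The level of Ncoa2 was 1.28 times that of Ncoa1 in NT and 1.96 times in IL-4.

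Kat2b differed from Kat2a by -0.63 (-0.92 to -0.35), and the level of Kat2b per length was 0.575 of that of Kat2a in NT and 0.379 in IL-4. Hdac5 differed from Hdac4 by -0.62 (-1.04 to -0.19), and by -0.999 (-1.42 to -0.57) less the trend. Among the readers, Brd3 differed from Brd2 by -0.41 (-0.62 to -0.19), Brpf1 from Brd1 by -0.46 (-0.68 to -0.24) and Baz2b from Baz2a by -0.44 (-0.67 to -0.22).

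For 9 pairs the interval included 0 in both readings. Ep300 and Crebbp differed by 0.23 (-0.00 to 0.45), and Hdac2 and Hdac1 by 0.15 (-0.12 to 0.41). Hdac7 and Hdac5 differed by 0.16 (-0.16 to 0.47), and Kat6b and Kat6a by 0.07 (-0.28 to 0.43). Brd9 and Brd7 had the smallest difference, 0.01 (-0.24 to 0.26), and the intervals of these pairs do not show that their members act alike. The pair of Sin3b and Sin3a differed by 0.18 (-0.04 to 0.40) as measured and by -0.24 (-0.46 to -0.02) less the trend, since their transcripts differ in length.

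**Figure D4:**
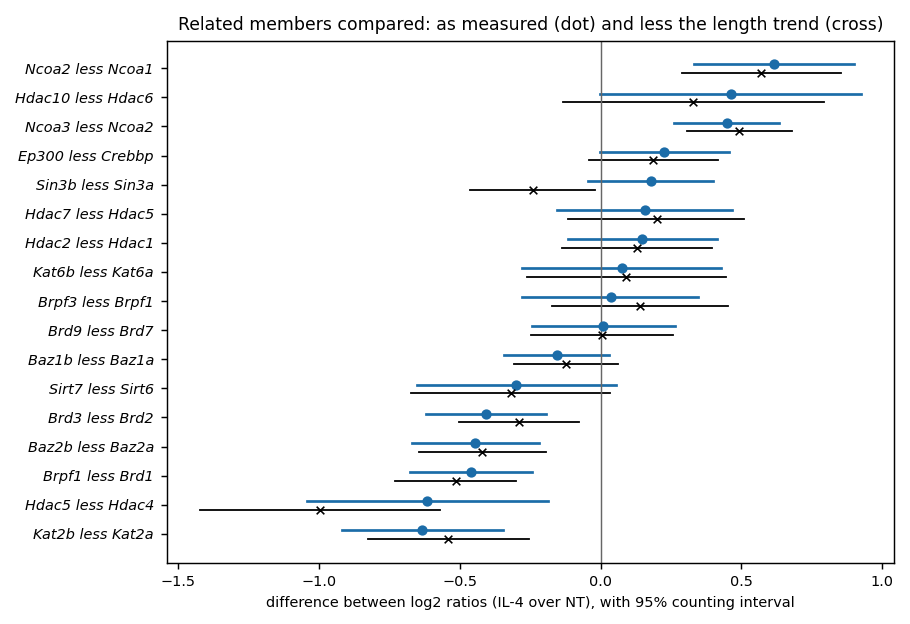
Difference between the log2 ratios of 17 pairs of related members, as measured (blue dots, exact 95% counting intervals) and less the length trend (black crosses and bars). Intervals to the right of 0 for Ncoa2 less Ncoa1 and Ncoa3 less Ncoa2, and to the left for 5 pairs from Brd3 less Brd2 to Kat2b less Kat2a, leave out 0 both ways.

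Partners of the members in their complexes were read from lists of other genes. Of 36 partners of acetyltransferase complexes, 2 were called lower and none higher, near the 6.28% and 4.07% of all tested genes, with a median ratio of -0.10. These were Trrap, the scaffold of SAGA and TIP60 (859 and 485 reads, ratio -0.85, -1.02 to -0.69), and Ep400, the TIP60 remodeller (1172 and 707 reads, -0.76, -0.89 to -0.62). Both have long transcripts, and less the trend they stood at -0.27 and -0.25 and were not called. The ATPases Ruvbl1 (190 and 299 reads, 0.62) and Ruvbl2 (281 and 414, 0.53) had the highest ratios of the list.

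Of 40 partners of deacetylase complexes 3 were called lower and none higher, again near the shares of all tested genes (6.28% and 4.07%), with a median of -0.04. Rere, an atrophin family corepressor, had 3214 reads in NT and 1497 in IL-4 (ratio -1.13, -1.22 to -1.04), Tbl1xr1 of the NCoR complex 781.16 and 383.12 (-1.05), and Chd3 of NuRD 2189.00 and 1209.02 (-0.88). None of the 3 was called less the trend, at -0.67, -0.62 and -0.44. Chd4, the other remodeller of NuRD, had 6749 and 8970 reads and a ratio of 0.38 (0.34 to 0.43), under the threshold. Less the trend it was 0.68 (0.64 to 0.73), the highest of the list and still under the threshold.

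Of 26 further bromodomain and YEATS readers 3 were called lower and none higher. Over all tested genes 4.07% were called higher and 6.28% lower. The share called lower was 22.4% over those of at least 7000 bases. Not all of this list is that long, as its median length was 6250 bases and Trim24 has 6120. The median ratio of -0.35 became -0.08 less the trend, where none was called, against 4.07% higher and 4.87% lower of all tested genes. Those called were Kmt2a (1015.99 and 486.00 reads, ratio -1.09, -1.25 to -0.93), Trim24, a ubiquitin ligase with a bromodomain (174.92 and 103.00 reads, -0.79, -1.16 to -0.43), and Bptf of the NURF remodeller (1152 and 693 reads, -0.76). Their ratios less the trend were -0.49, -0.54 and -0.22.

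The supply of acetyl-CoA and NAD was followed in 19 genes, with a median ratio of 0.14. Acss1, the mitochondrial acetyl-CoA synthetase, had 316 reads in NT and 822.88 in IL-4, a level of 7.90 and 20.18 FPKM and a ratio of 1.35 (1.16 to 1.54) that was 1.36 less the trend, and it was the single gene of the list called higher. Acss2, its cytosolic and nuclear counterpart, had 114 and 75 reads with a ratio of -0.63 (-1.07 to -0.20), which was not called. Acly, the citrate lyase that makes cytosolic acetyl-CoA, had 2806 and 3267 reads (0.19), and Nampt, which salvages NAD, 2570 and 3136 (0.26). Nnmt, which uses up nicotinamide, was called lower on 13 and 2 reads (-2.46, -5.92 to -0.59). The 1 gene called higher and 1 called lower among the 19 lay near the shares of all tested genes (4.07% and 6.28%).

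**Figure D5:**
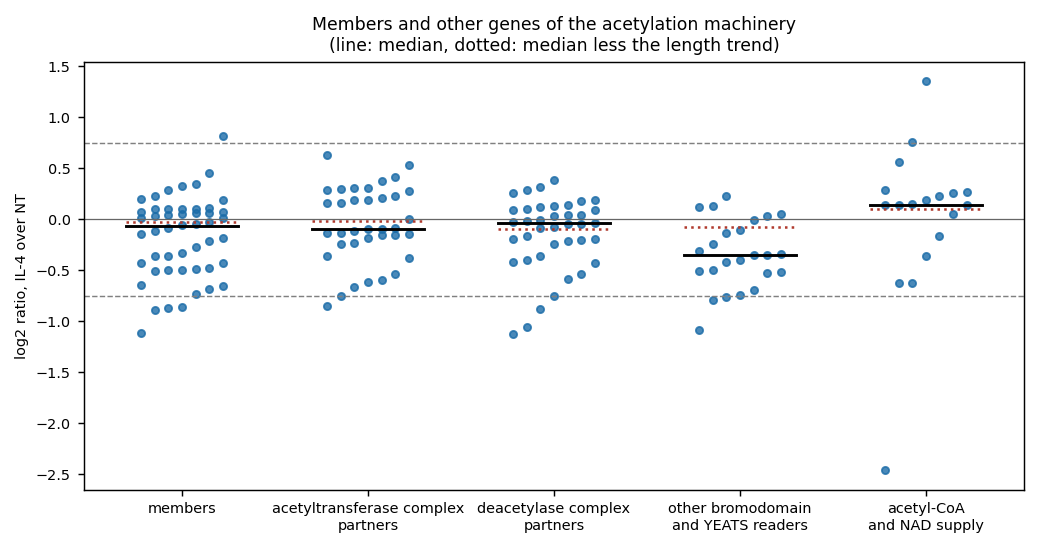
Log2 ratio of IL-4 over NT for the members and for the 4 lists of other genes of the acetylation machinery, 1 point per gene with more than 3 reads in 1 library or both, with the median of each full list as measured (black line) and less the length trend (dotted line) and the threshold of 0.75 dashed. The further readers have the lowest median at -0.35, and Acss1 at 1.35 is the highest point of all.

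The promoter windows shown at the start can be set beside these ratios, as a description. The ratios of the 8 members with a match to the Stat motif ran from -0.74 for Hdac7 through -0.65 for Baz2b, -0.49 for both Ncoa6 and Ncor1, -0.28 for Hdac4, -0.11 for Sirt7 and -0.02 for Brd2 to 0.19 for Sirt6. Less the length trend they were -0.63 for Hdac7, -0.22 for Baz2b, -0.14 for Ncoa6 and -0.10 for Ncor1. Hdac4 then stood at 0.17, Sirt7 at -0.24, and Brd2 and Sirt6 at 0.08. Members with and without a match were not compared.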

How the data were processed

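The authors used Bowtie for mapping (GRCm38/mm10) and RSEM for quantification; versions are not given in the sources used here. The deposited tables give an expected count, a transcript length and FPKM (reads scaled to transcript length and mapped total) per NCBI gene number, and 15587 of 15623 numbers matched a RefSeq symbol (GRCm38.p6). Ratios used the expected counts, rounded for the exact (Clopper-Pearson) intervals, scaled to library totals. Of the members 47 had whole counts in both libraries, and reads that RSEM shares between related genes make the others less certain. A floor of 3 reads applied.

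The members and lists were chosen with earlier results of these data known. Named in full were members called either way, Crebbp and Ep300, and the most abundant, highest and lowest of each role; of the other lists, up to 3 called genes each way with at least 50 reads. Further genes of those lists were named after their values were seen. The 0.75 threshold, lists and pairs gave no p-value. Proteins were not compared. The code was run on simulated counts with no variation between animals and planted changes all over the 0.75 threshold. That run cannot show how reliable the calls in these libraries are. Tools were Python 3.11.15, numpy 2.4.6, pandas 2.3.3, scipy 1.17.1, matplotlib 3.10.9 and, for alternatives, R 4.3.3 with edgeR 4.0.16 and DESeq2 1.42.0.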

Additional observations from a re-analysis of the deposited data

How the results depend on the processing

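The count of members called higher (1, Hat1) and lower (4) stayed within 1.5 times under TMM and median-of-ratios scaling, FPKM with 0.1 added (where Hdac9 was not called, at -0.57), library totals that omit the 100 genes of highest abundance, a minimum of 50 reads and, chosen after seeing the data, whole expected counts alone. Across these settings 3.91% to 4.32% of the genes tested were called higher and 5.48% to 6.83% lower. Lower calls were 2 with 1 added to FPKM (Hdac5 and Ncoa1, with Crebbp at -0.73 and Hdac9 at -0.28), 1 at a log2 ratio of 1 (Ncoa1) and 8 at 1.5-fold, and higher calls were 0 at a log2 ratio of 1. The shares of all tested genes moved too. They were 2.56%, 3.72% and 8.84% for these lower calls and 3.04% for the higher calls at a log2 ratio of 1. In edgeR's exact test under a biological coefficient of variation set to 0.2, 0 were called higher and 3 lower (Hat1 and Hdac9 were lost), and with 0.4 0 were called higher and 0 lower. Of all tested genes 3.07% were then called higher and 4% lower with 0.2, and 1.31% higher and 0.564% lower with 0.4. Less the length trend, lower calls (2) were 0 at a log2 ratio of 1 and 4 at 1.5-fold, and higher calls (0) were 1 at 1.5-fold. The matching shares of all tested genes were 3.05% and 6.99% lower, and 5.48% higher. The cause of these changes was not tested beyond the settings' own construction. The difference of Sin3b less Sin3a changed sign, to -0.24, less the length trend. No member named in full changed sign as a called value. Scaling moved the median of all genes by at most 0.04 on the log2 scale. Pairing could not be examined, with 1 library on each side. Depth limits Hdac9, Sirt3, Sirt4, Sirt5 and Hdac8, whose intervals are wide, and Hdac11, which is under the floor. The spread between animals was not measured.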
